A study of Saccharomyces cerevisiae with 6 samples.

Results

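Ribosome biogenesis factors are the proteins that build ribosomes without staying in them. In budding yeast, Saccharomyces cerevisiae, they bind the nascent ribosomal RNA precursor in the nucleolus, modify, fold and cleave it, and fit the ribosomal proteins onto it. The small subunit forms first, inside a particle called the small subunit processome, whose UTP proteins are named from the U-three small nucleolar RNA at its centre. The large subunit matures along a separate line of RNA helicases, GTPases and scaffold proteins. The genes for these factors are well known to be expressed with growth and to be turned down when yeast meets stress.

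The group described here was a list of 60 such factors, chosen by gene symbol. Of these, 59 had a named probe on the array, 1 probe each, among 5379 named genes in all, and UTP20 had none. By role, 30 act on the small subunit, 20 on the large subunit, 5 are core proteins of the small nucleolar ribonucleoproteins (snoRNPs) that modify or process ribosomal RNA, and 5 act on both subunits or were assigned to neither.

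The study exposed strain S288C, the laboratory strain of the reference genome, to 1.8 mM formaldehyde for 2 h during exponential growth in rich YPD medium at 25 °C. Control cells were grown on for 2 h with no chemical added. Treated cDNA carried Cy5 and control cDNA Cy3, both were hybridised to the same 2-colour array, and 3 independent samples gave 3 arrays, each read in a high power and a low power scan. Values are log2 ratios of treated over control, the likely but unstated direction, which rests on the labels placing the treated sample in channel 1; a reversed ratio would turn every lower into higher. All arrays used the same dye orientation, so a dye effect of a gene and the treatment cannot be told apart. RNA came from whole cultures, so less transcript in every cell and loss of transcript from some of the cells cannot be told apart either. A ratio holds no level, so levels of different factors cannot be compared.

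Few of the factors were measured on more than 1 array. Of the 59 with a probe, 2 had a value on all 3 arrays, 4 on 2 arrays, 32 on 1 array and 21 on none. A value on 2 or 3 arrays was thus available for 10.2% of the factors, against 61.5% of all named genes and 93 of the 124 cytosolic ribosomal protein genes with a probe. Array 1 gave 5 of the factors a value, array 2 gave 4 and array 3 gave 37, while the same arrays covered 2498, 3329 and 4292 of all named genes. The authors normalised spots that carried no flag, and the reason for a flag was not among the information used here. Most of what follows is therefore the reading of 1 array with no replicate.

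**Figure D1:**
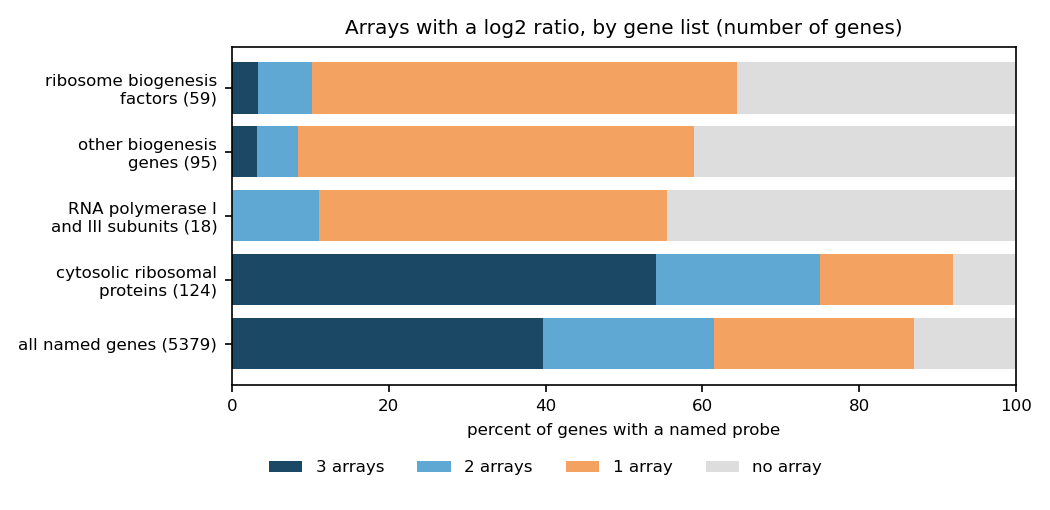
Percent of genes with a named probe (x axis) that had a log2 ratio on 3, 2, 1 or no array, for 5 gene lists (rows, with the number of genes). Only 10.2% of the biogenesis factors had a value on 2 or 3 arrays, compared with 61.5% of all named genes.

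Among the 6 factors that could be tested, NSR1, GAR1, DBP2 and UTP8 fell, by 2.90-fold (UTP8) to 16.0-fold (NSR1), and none rose. ENP2 and NSA1 did not pass. The test was limma's moderated test of the mean log2 ratio against 0 over the 3307 genes with a value on 2 or 3 arrays, at a Benjamini-Hochberg adjusted p under 0.05. In that test 24.7% of all genes were called lower and 30.3% higher, so the 4 of 6 stand against a background in which most genes were called, and 6 genes are too few to set a share against it. Where a factor has 2 arrays, its p leans on the variance pooled over genes.

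NSR1 (YGR159C), the yeast counterpart of nucleolin and needed for small subunit rRNA processing, had log2 ratios of -3.53 on array 1 and -4.47 on array 3. Both values were far below 0. The mean was -4.00 ± 0.67 (SD, n = 2; limma adjusted p = 1.12e-06; 95% interval -4.66 to -3.33).

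GAR1 (YHR089C), a core protein of the box H/ACA snoRNPs that guide pseudouridine formation, had log2 ratios of -1.80 on array 1 and -2.58 on array 3. Both lay below 0, the second further than the first. The mean was -2.19 ± 0.55 (SD, n = 2; limma adjusted p = 8.89e-05), or 4.56-fold lower.

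DBP2 (YNL112W), a DEAD-box RNA helicase that acts in rRNA processing and in mRNA decay, had log2 ratios of -1.71, -1.77 and -2.39 on arrays 1, 2 and 3. It was the one factor called lower with all 3 arrays present, and all 3 lay below -1. The mean was -1.96 ± 0.38 (SD, n = 3; limma adjusted p = 1.67e-05), or 3.89-fold lower. Its array 3 value joins a high power reading of -2.65 and a low power reading of -2.14.

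UTP8 (YGR128C), a subunit of the UtpA complex that first binds the emerging precursor, had log2 ratios of -0.45 on array 2 and -2.62 on array 3. Both were below 0 but they were far apart. The mean was -1.54 ± 1.54 (SD, n = 2; limma adjusted p = 0.0104), and the call was lost with a variance prior that is robust to outlying genes (adjusted p = 0.12).

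ENP2 (YGR145W), a nucleolar protein of the processome, had log2 ratios of -0.36, -0.82 and -0.05 on arrays 1, 2 and 3. All were below 0 and small. The mean was -0.41 ± 0.39 (SD, n = 3; limma adjusted p = 0.15), with a 95% interval of -0.90 to 0.09, which excludes a fall of the size seen for DBP2.

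NSA1 (YGL111W), a component of early large subunit precursors, differed in sign between its arrays, with log2 ratios of 2.40 on array 1 and -1.25 on array 3. The first was the one value above 0 among all the values of the factors. The mean was 0.58 ± 2.58 (SD, n = 2; limma adjusted p = 0.46). Of 2482 genes with a value on both arrays, 11, NSA1 included, differed between them by at least as much.

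**Figure D2:**
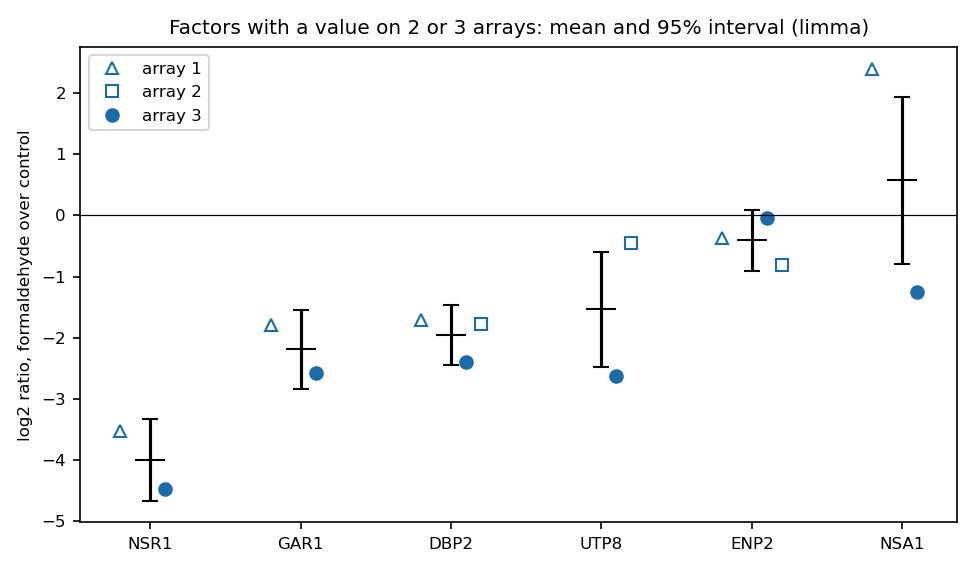
Log2 ratio of treated over control (y axis) for the 6 factors with a value on 2 or 3 arrays (x axis): symbols are single arrays, horizontal bars the mean and vertical bars limma's 95% interval. The intervals of NSR1, GAR1, DBP2 and UTP8 lie below 0, whereas those of ENP2 and NSA1 include it.

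On array 3, all 37 measured factors had a log2 ratio below 0, against 45.6% of all named genes there. Their median was -2.25, or 4.77-fold lower, while the median of all 4292 genes was 0.13. At or below -1 lay 31 of the 37, against 18.9% of all genes, and at or below -2 lay 23, against 8.55%. Array 3 alone measured 31 of the 37 factors. Among all 998 genes measured there alone, 57.4% were below 0, 26.7% at or below -1 and 11.5% at or below -2. Their median was -0.21. The factors spread widely, from -4.47 (NSR1) to -0.02 (NOP53), with an SD over factors of 1.20. These are readings of a single array, given with no test.

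The other arrays gave few values to set beside them. On array 1, 4 of 5 factors were below 0 (median -1.71), against 49.4% of all genes. On array 2, 4 of 4 were below 0 (median -0.83), against 48.0%. Of the 6 factors measured on array 3 and on another array, 5 had their lowest value on array 3, and ENP2 was the exception. Among all genes at or below -1 on array 3, 389 of the 394 genes that array 1 also measured were below 0 there, and 465 of 470 on array 2. NSA1 was 1 of the 5 exceptions on array 1. The values of these genes were a median of 0.20 and 0.28 higher on arrays 1 and 2 than on array 3. The genes were picked by their array 3 values, so that shift is no measure of a difference between arrays. Gaps were wider than these medians for NSR1 (-3.53 on array 1, -4.47 on array 3), GAR1 (-1.80, -2.58) and NSA1 (2.40, -1.25). They were also wider for DBP2 on arrays 1 and 2, and for UTP8 (-0.45 on array 2, -2.62 on array 3). The array 3 readings may thus overstate the size of the falls. Those genes are the ones measured repeatedly, which most biogenesis factors were not.

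**Figure D3:**
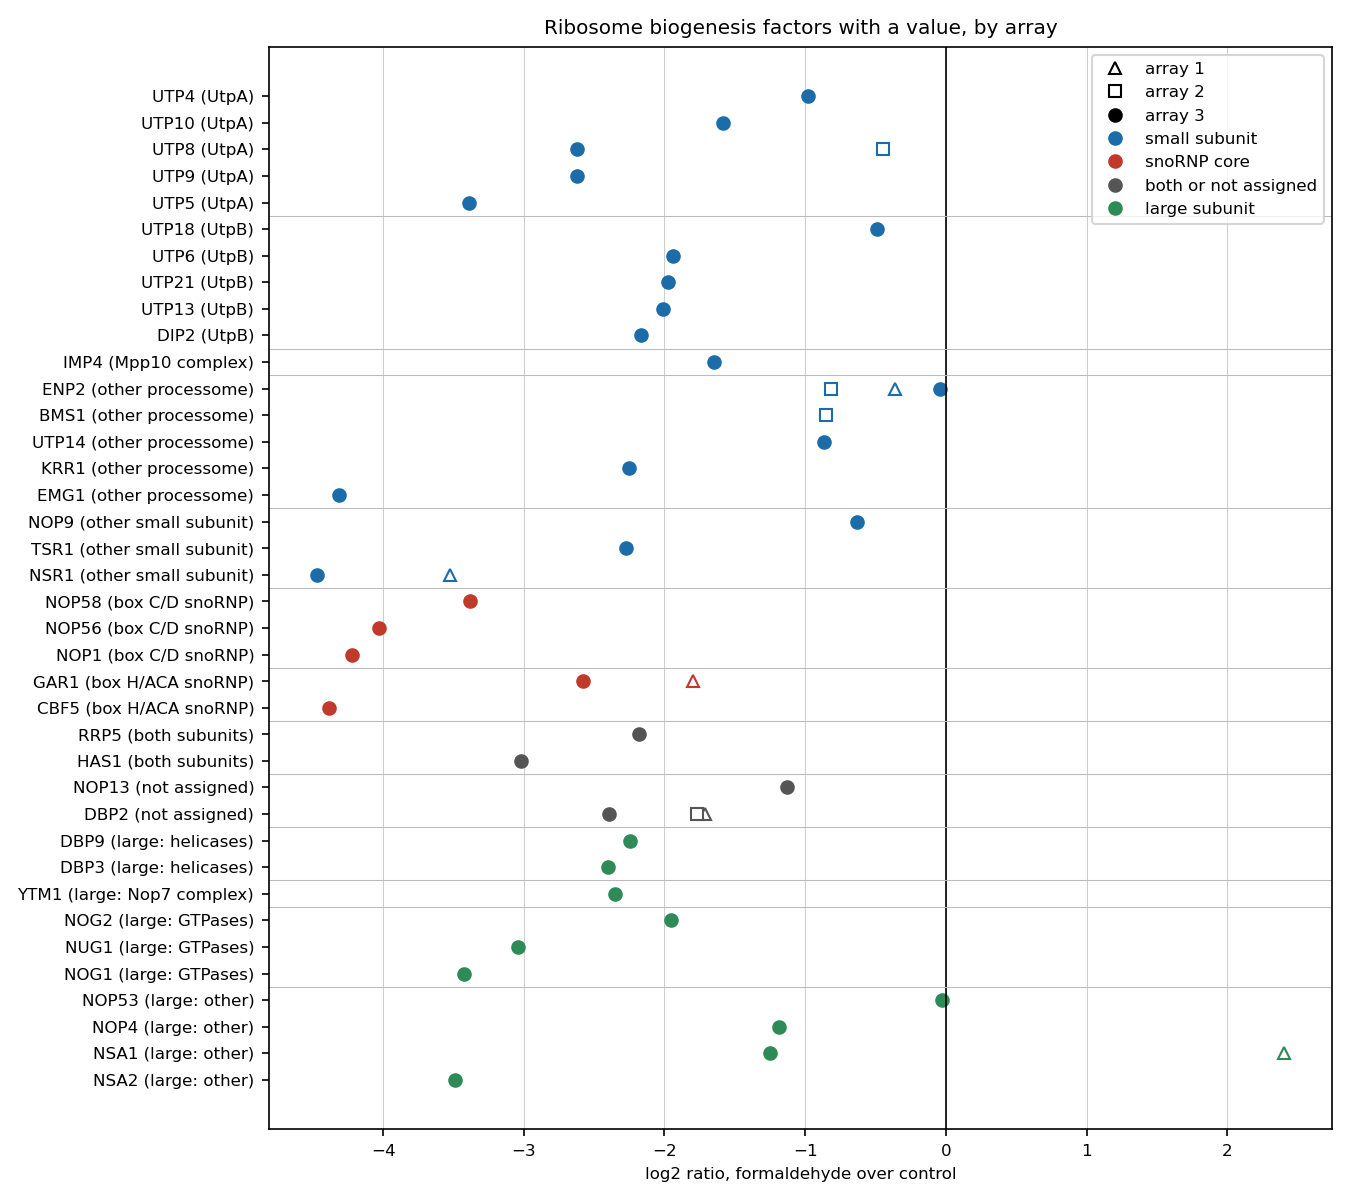
Log2 ratio of treated over control (x axis) of the 38 factors with a value, in rows by role and coloured by subunit: filled circles are array 3, open triangles array 1 and open squares array 2. Every symbol lies below 0 except NSA1 on array 1, at 2.40, and the snoRNP core proteins include 3 of the 5 lowest circles.

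The core proteins of the snoRNPs had the lowest median of the 4 classes, -4.03 on array 3, or 16.4-fold lower, and all 5 were measured. These particles pair with ribosomal RNA to place methyl groups (box C/D) or pseudouridines (box H/ACA). NOP1 (YDL014W), the fibrillarin counterpart and the methyltransferase of the box C/D particles, read -4.22. Its partners NOP56 and NOP58 read -4.03 and -3.38. CBF5 (YLR175W), the pseudouridine synthase of the box H/ACA particles, read -4.38, and its partner GAR1 was highest of the 5 at -2.58. Among all genes on array 3, CBF5 was 34th from the lowest and NOP1 52nd.

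Of the small subunit factors, 18 had a value on array 3, and the median was -1.99. The UtpA complex, which joins the precursor first, had 5 of its 6 listed subunits measured, and they were uneven. UTP5 (YDR398W) read -3.39, UTP9 and UTP8 both -2.62, UTP10 -1.59 and UTP4 (YDR324C) -0.98. UTP4 was read in both scans, at -1.16 with high power and -0.80 with low power.

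In the UtpB complex, a scaffold that joins next, 4 subunits lay close together. DIP2 (YLR129W), UTP13, UTP21 and UTP6 lay between -2.17 and -1.94, and UTP18 (YJL069C) stood apart at -0.49. UTP15 of UtpA and PWP2 of UtpB had no value. Of the Mpp10 complex, which helps the U-three RNA pair with the precursor, IMP4 (YNL075W) read -1.65, and MPP10 and IMP3 had no value.

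The remaining small subunit factors held both ends of the range of their class on array 3, NSR1 at -4.47 and ENP2 at -0.05. EMG1 (YLR186W), a methyltransferase for the small subunit RNA, read -4.32, close to NSR1. KRR1 (YCL059C), a processome protein, and TSR1 (YDL060W), a GTPase-like factor of late precursors, read -2.25 and -2.27. UTP14 (YML093W), which activates a processome helicase, read -0.87, and NOP9 (YJL010C), an RNA-binding protein of small subunit precursors, -0.63. BMS1 (YPL217C), the processome GTPase, was measured on array 2 only, at -0.85. UTP7, UTP11, UTP22, NOP14, ENP1 and the U-three protein RRP9 had probes but no value.

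Of the large subunit factors, 10 of 20 had a value on array 3, and the median was -2.30. The GTPases NOG1 (YPL093W), NUG1 and NOG2 (YNR053C), which act as checkpoints on nuclear large subunit precursors, read -3.43, -3.04 and -1.95. The lowest reading was that of NSA2 (YER126C), another precursor component, at -3.49. The DEAD-box helicases DBP3 and DBP9 read -2.40 and -2.25, and YTM1 (YOR272W), of the complex formed with NOP7 and ERB1, read -2.35.

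NSA1 and NOP4 (YPL043W), an RNA-binding protein, were less low, at -1.25 and -1.19. NOP53 (YPL146C), which brings the RNA exosome to large subunit precursors, was the highest of all at -0.02, a value not separable from the array's zero. No value was available for the methyltransferases NOP2 and SPB1, the helicase SPB4, NOP7, ERB1, NOP8, NOP12, NOP15, NOP16 and RLP7.

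Of the factors that serve both subunits, 2 had a value on array 3. HAS1 (YMR290C), a DEAD-box helicase, read -3.02, and RRP5 (YMR229C), a large RNA-binding protein needed for cleavages on both paths, -2.18. RRP12, which helps export both precursors, had no value. NOP13 (YNL175C), an RNA-binding protein of nucleolar precursors that was assigned to neither subunit, read -1.13.

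Small and large subunit factors were compared on array 3, the one array where each class had more than 3 values. The median of the small subunit factors was 0.31 above that of the large subunit factors. This is well below the SD over genes in either class, which was 1.21 for the small and 1.09 for the large subunit factors, and 16 of the 18 small subunit factors lay within the range of the large subunit factors. The difference was 0.21 when HAS1 and RRP5 were counted in both classes and 0.33 when NOP9, NSR1 and TSR1 were left out of the small subunit class. The snoRNP core proteins, those of the box C/D particles included, were counted in neither class. The box C/D proteins NOP1, NOP56 and NOP58 read -4.22, -4.03 and -3.38, below the medians of both classes. Counting them with the small subunit would lower that median and narrow the difference, and this alternative was not run. The difference has no replicate, since array 2 had no large subunit factor and array 1 had 1, NSA1. No difference between the subunits could thus be tested.

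Set beside related genes, the factors lay between other biogenesis genes and the ribosomal proteins. The lists were chosen with earlier results of these data known, so this order is a description only. A list of 97 other biogenesis genes had 95 with a probe and 50 with a value on array 3, with a median of -1.18. Of the 50, 49 were below 0, against 45.6% of all named genes there. Of the 8 that could be tested, 3 were called lower (limma) and none higher, against 24.7% and 30.3% of all genes tested. These 8 genes are too few to set a share against that background. ARB1, an ABC-type ATPase, fell by 2.40, the exosome helicase MTR4 fell by 1.73 and TIF6, which keeps the subunits from joining early, fell by 0.88 on the log2 scale. The 3 highest, AFG2 (0.23), NOB1 (0.05) and UTP30 (-0.13), did not pass.

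RNA polymerases I and III transcribe the ribosomal RNAs. Of 18 of their subunits with a probe, 10 had a value on array 3, with a median of -1.52. Of these, 9 were below 0, against 45.6% of all named genes there. RPC34, of polymerase III, fell by 1.48 (limma adjusted p = 0.00108), and RPC25 had a mean of -0.65 (limma adjusted p = 0.062). No other subunit had a value on 2 arrays, and 2 tested genes are too few to set against the 24.7% of all genes called lower.

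The cytosolic ribosomal proteins, the parts that the factors assemble, read lower still. All 93 tested genes were called lower (limma), against 24.7% of all genes tested. On array 3 the median over 107 genes was -3.87, or 14.6-fold lower. Only 5 of the 37 factors, NSR1, CBF5, EMG1, NOP1 and NOP56, lay at or below that median, and 6 lay above the highest ribosomal protein gene. The medians had the same order among genes that array 3 alone measured, at -4.07 for 15 ribosomal protein genes, -2.25 for 31 factors, -1.21 for 42 other biogenesis genes and -0.10 for 902 genes outside these lists. None of these differences between lists was tested, and the lists were chosen with earlier results of these data known.

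**Figure D4:**
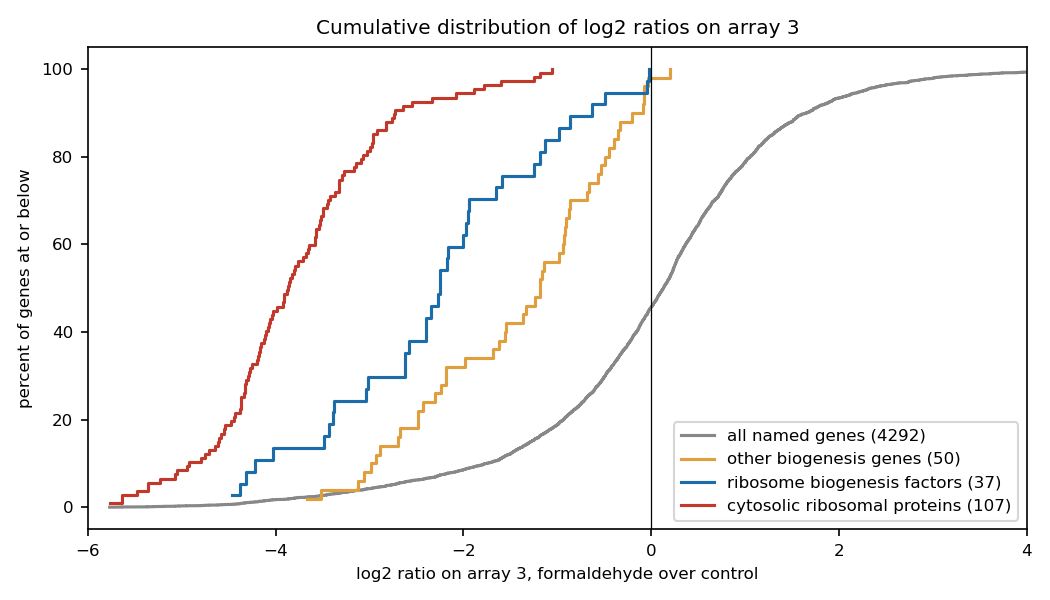
Percent of genes (y axis) at or below each log2 ratio on array 3 (x axis, shown from -6 to 4) for 4 gene lists, with the number of genes. The curve of the 37 factors lies between that of the other biogenesis genes and that of the ribosomal proteins, and reaches 100 percent before 0.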

How the data were processed

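Per the labels' protocols, poly(A) RNA of treated and control cells was labelled with Cy5 and Cy3 and hybridised together. The authors deposited log2 ratios per probe and scan, LOWESS-normalised within each scan over spots with no flag, per the labels' descriptions of each scan. The base of the logarithm was read off the lowest value, the log2 of 0.01. Spot intensities were not used here, so signal over background is unknown and the number of arrays limits the precision. Genes were named through GEO's platform annotation (5446 of 6912 probes had 1 symbol, none several, 1466 none), and all 5379 genes matched the RefSeq table of assembly R64, which gave systematic names. Coordinates are left out because the build behind the array is unknown.

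Probes of a gene were averaged, then the scans of each array; arrays were the replicates. Genes with a value on 2 or 3 arrays entered limma 3.58.1 (R 4.3.3; prior degrees of freedom 9.63), which tested the mean against 0, with p-values adjusted by Benjamini-Hochberg over every gene tested. LOWESS takes the zero of each scan from its own genes, so a change common to most transcripts is invisible. The members and gene lists were chosen with earlier results of these data known. The rule for named genes took every factor with a value on 2 or 3 arrays, the highest and lowest of each role among those with 1, and of the other biogenesis genes and polymerase subunits the 3 lowest and 3 highest tested genes; the remaining factors are named to account for each. A planned look at promoter motifs was not run, as no promoter sequences were used here. Alternatives are given in the closing section.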

Additional observations from a re-analysis of the deposited data

How the results depend on the processing

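With values required on all 3 arrays, 2 factors were tested and 1, DBP2, was called lower, while 539 of all genes were called lower (25.3%) in place of 816. Leaving out each array in turn, 1 to 3 factors were called lower of 2 to 5 tested. Leaving out array 3 left DBP2 and ENP2 to test, and leaving out array 1 left DBP2, ENP2 and UTP8. Fewer factors thus had enough values in each of these fits, and DBP2 was called each time. The cause of the lower counts was not tested. Over all genes these fits called 464 to 688 lower and 608 to 960 higher, of 2146 to 2945 genes tested. The main fit called 816 lower and 1003 higher of 3307. Low power scans alone gave 2 factors a value, UTP4 and DBP2 on array 3, both below 0 with a median of -1.47, so no factor could be tested there, and 253 genes were called lower and 327 higher. Against a minimum fold of 2, 281 of the 3307 genes were called lower and 278 higher. UTP8 was lost against that fold (adjusted p = 0.45), at a threshold of 0.01 and with robust eBayes (adjusted p = 0.12); the cause was not tested. NSR1, GAR1 and DBP2 were called lower, and ENP2 and NSA1 did not pass, in every fit that could test them. Centring the scans on genes outside the ribosomal lists lowered the median of all tested genes by 0.11 (from 0.09 to -0.03) and that of the factors on array 3 to -2.40. All 37 factors were already below 0 on array 3 and this zero moved values down, so that count could not change. Over all genes that zero gave 902 lower and 864 higher, so lower calls were then the larger share (51.1%, against 44.9% as deposited). Each array holds the treated and control sample of 1 number in 1 ratio, so the test of the mean ratio against 0 already uses that pairing.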

Other observations

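Some biogenesis genes lie next to each other in the genome. In the order of protein-coding genes in RefSeq assembly R64, 5 of the 60 factors (8.33%) had another biogenesis gene of the lists used here as a direct neighbour, against 5.18% of all 6021 protein-coding genes; this share was not tested. Both partners had a value on array 3 in 2 of these pairs. NSA2 read -3.49 and its neighbour LCP5 -1.18, and GAR1 read -2.58 and its neighbour RPF1 -0.67. Partners differed by over 1.5 on the log2 scale in both pairs, on 1 array with no replicate. That all were below 0 says nothing about neighbours, since all 37 measured factors and 49 of 50 other biogenesis genes were below 0 there. The pairs were looked up after the values were known.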
